A study of Mus musculus with 16 samples.

Results

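The genes described here are those through which cells of the nucleus accumbens sense and remove adenosine. They are the 4 adenosine receptors (Adora1, Adora2a, Adora2b and Adora3), the enzymes that make or clear adenosine (Entpd1, Nt5e, Adk and Ada) and the equilibrative nucleoside transporters Slc29a1 and Slc29a2. They were chosen by name, as the targets of caffeine and the enzymes and transporters around them, and found by Ensembl identifier. All 10 were present among the 22337 gene rows of the table. Male C57BL/6 mice had received saline, arecoline, caffeine or nicotine over 4 days, and RNA-seq of their nucleus accumbens gave 4 libraries for each of these 4 groups. Arecoline is the areca nut alkaloid that acts on muscarinic acetylcholine receptors, caffeine is an adenosine receptor antagonist, and nicotine acts on nicotinic acetylcholine receptors. The labels state neither dose, route nor age, and record no agent or allele common to all groups. They also leave unsaid whether each library is a separate animal, so the p-values describe spread between libraries that could be technical.

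Adenosine outside the cell arises largely from ATP, which the ectonucleotidase CD39 (Entpd1) cuts to AMP and the ecto-5′-nucleotidase CD73 (Nt5e) cuts to adenosine. It acts on the inhibitory A1 receptor and on the A2A receptor, which in the striatum is concentrated on indirect-pathway medium spiny neurons, where it opposes the dopamine D2 receptor. Equilibrative transporters let adenosine cross the membrane, after which adenosine kinase (Adk), in the adult brain mainly an astrocyte enzyme, or adenosine deaminase (Ada) removes it.

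Libraries held 9.04 to 24.32 M estimated counts. The labelled tissue was checked against markers of medium spiny neurons, the main neurons of the accumbens. All 8 markers of this list were detected in every library, but their summed level lay between 5937 and 8976 CPM (counts per M of the library total, scaled by TMM) in saline replicate 3 and arecoline replicates 2 and 3, and between 791.8 and 2218 CPM in the other 13 libraries. A list of 6 cortical excitatory neuron markers summed to between 84.29 and 359.0 CPM in those 3 libraries and to between 465.5 and 832.8 CPM in the others. Nicotine replicate 2 stood apart by a summed level of 523.0 CPM for 3 olfactory markers, against 98.0 CPM at most elsewhere. It was also highest in fibroblast and meningeal (482.7 CPM against at most 169.1), pericyte and smooth muscle (238.6 against at most 119.0) and endothelial markers (360.4 against at most 296.2). The main results are given with and without these 4 libraries. In bulk RNA, fewer cells of a type and less RNA per cell cannot be told apart.

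No member passed the edgeR test in any comparison with all 16 libraries, and 2 of them, Adora2a and Nt5e, varied many-fold between libraries of the same group. From the lowest to the highest library, FPKM spanned 1.53-fold for Adk, 1.6-fold for Slc29a1, 1.63-fold for Slc29a2 and 1.8-fold for Adora1, against 29-fold for Nt5e and 335-fold for Adora2a. The point estimates with caffeine against saline were lower for 8 of the 10, with Nt5e and Adk the closest to the threshold. By the authors' FPKM, which scales counts to gene length and so allows levels of different genes to be compared, Adora1 had a median of 48.4 FPKM over the 16 libraries and Adk 44.3 FPKM, followed by Slc29a1 at 21.3, Adora2a at 10.5, Slc29a2 at 8.16 and Entpd1 at 6.99 FPKM. Adora2b stood at 3.99, Nt5e at 1.67, Adora3 at 0.78 and Ada at 0.63 FPKM.

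Neighbours in this order were not all distinct. Adora1 exceeded Adk in 9 of 16 libraries, and their saline ranges overlapped. Adk exceeded Slc29a1 in all 16, with saline means of 48.0 ± 6.19 and 23.6 ± 3.63 FPKM (SD, n = 4) and no overlap. Saline ranges overlapped for Slc29a1 with Adora2a, Slc29a2 with Entpd1, Entpd1 with Adora2b, Adora2b with Nt5e, and Adora3 with Ada. They did not overlap for Adora2a with Slc29a2 or for Nt5e with Adora3. Adora2a had no fixed place, ranking first of the 10 in 3 libraries and last in arecoline replicate 4, between 0.50 and 167 FPKM.

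**Figure D1:**
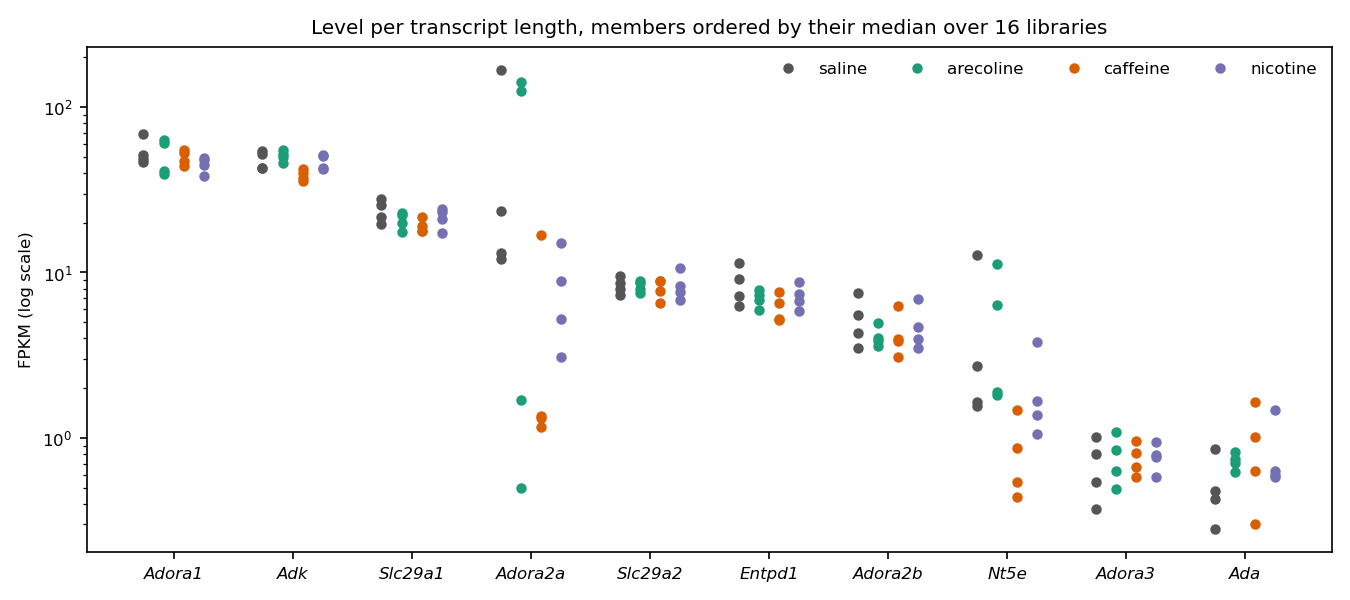
Level of the 10 genes in FPKM (log axis) with 1 point for each of the 16 libraries, coloured by group, ordered by median. Adora1 and Adk lie highest by median, at 48.4 and 44.3 FPKM, Adora3 and Ada lowest, and Adora2a spans 0.50 to 167 FPKM.

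Adora1 encodes the A1 receptor, which lowers cyclic AMP and dampens transmitter release. It lies on mm10 chromosome 1, 134199223 to 134235431, minus strand. In CPM it stood at 175, 184, 242 and 186 in saline replicates 1 to 4, and at 149, 244, 220 and 151 with arecoline. Caffeine libraries had 176, 208, 168 and 202 CPM and nicotine libraries 176, 147, 192 and 187 CPM. The groups overlapped throughout, and the 3 highest values came from the same 3 libraries that were highest in medium spiny neuron markers. Against saline the log2 fold change was -0.06 ± 0.16 (SE) with caffeine, with a 95% interval of -0.39 to 0.27 (edgeR, adjusted p = 0.837). It was -0.04 ± 0.16 with arecoline and -0.16 ± 0.16 with nicotine, with intervals of -0.38 to 0.29 and -0.50 to 0.17. Without the 4 libraries that stand apart, the estimates were 0.05 ± 0.09 with caffeine, -0.27 ± 0.11 with arecoline (edgeR, unadjusted p = 0.0244, adjusted p = 0.147) and 0.02 ± 0.10 with nicotine. With the mean level of the medium spiny neuron markers as a covariate, the caffeine estimate turned to 0.26 ± 0.10 (edgeR, adjusted p = 0.186). The summed markers were 2083 to 8976 CPM with saline, 987.0 to 1899 CPM with caffeine and 1121 to 1647 CPM with nicotine. Neither compound overlapped saline, so here and below estimates with this covariate cannot separate marker level from compound. The 3′ end overlaps Mybph on the opposite strand over 2010 bases, and the sources used here do not say whether counting used strand. Mybph itself had at most 11.43 counts in any library.

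The promoters of Adora1 and Adora3 are printed because these receptors stand near opposite ends of the order of levels. Each run is the 250 bases before a RefSeq transcript start on GRCm38.p6, written 5′ to 3′ on the gene's strand with CpG dinucleotides in capitals. The Adora1 sequence is chr1:134235458-134235707, minus strand, and the Adora3 sequence is chr3:105904171-105904420, plus strand, which lies inside the longer span that GENCODE gives the gene.
Adora1: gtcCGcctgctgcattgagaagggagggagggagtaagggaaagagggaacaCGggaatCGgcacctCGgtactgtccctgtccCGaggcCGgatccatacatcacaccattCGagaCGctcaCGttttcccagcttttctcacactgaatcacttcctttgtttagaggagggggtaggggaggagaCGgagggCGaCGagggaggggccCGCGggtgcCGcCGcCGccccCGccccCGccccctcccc
Adora3: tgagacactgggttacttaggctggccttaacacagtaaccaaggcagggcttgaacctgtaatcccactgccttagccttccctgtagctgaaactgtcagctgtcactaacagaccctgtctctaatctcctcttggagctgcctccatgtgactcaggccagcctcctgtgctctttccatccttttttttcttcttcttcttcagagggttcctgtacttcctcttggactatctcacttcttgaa

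The Adora1 window holds 19 CpG dinucleotides and is 64.4% G or C, and the Adora3 window holds 0 and is 48.8% G or C. The background, called all windows below, is 32851 promoter windows. It leaves out a chromosome that holds none of the 10 genes, and any window shorter than 250 bases. Its median was 6 CpG and 52.4%, and 7.87% of the windows hold no CpG. The GC box GGGCGG, searched on both strands, occurs 3 times at the downstream end of the Adora1 window as its reverse complement CCGCCC, in matches that share their end bases, and not in the Adora3 window. It is found in 32.7% of all windows. Of the other motifs searched on both strands, neither window holds the cyclic AMP response element TGACGTCA (in 1.55% of all windows), nor its core TGACG, which overlaps it (17.8%). Neither holds the CCAAT box (letters CCAAT, 33.8%), the TATA box (letters TATAAA, 12.4%) or the E box (letters CACGTG, 6.02%). Of the 10 genes, 9 had a RefSeq promoter entry, with 19 starts in all. These matches are descriptions of sequence and were not related to the expression values.

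Adora2a, the A2A receptor, raises cyclic AMP through Golf and is the receptor at which caffeine's locomotor and arousal effects are placed. It lies on chromosome 10, 75316877 to 75334784, plus strand. It stood at 28.5, 26.6, 356 and 50.4 CPM in saline replicates 1 to 4, and at 3.44, 281, 307 and 1.31 CPM with arecoline. With caffeine the values were 2.76, 3.03, 3.14 and 35.7 CPM, and with nicotine 12.1, 5.89, 22.8 and 33.8 CPM. Saline replicate 3 and arecoline replicates 2 and 3 were the highest of all, and the arecoline group held both high values and the lowest one. Caffeine replicates 1 to 3 lay below every saline library, and caffeine replicate 4 lay within the saline range.

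The log2 fold change of Adora2a against saline was -3.36 ± 1.39 with caffeine (edgeR, adjusted p = 0.15), 0.36 ± 1.25 with arecoline and -2.61 ± 1.34 with nicotine (adjusted p = 0.452). The caffeine estimate was -1.65 ± 1.28 without saline replicate 3 and -5.27 ± 1.64 without caffeine replicate 4 (adjusted p = 0.501 and 0.0868). Without the 4 libraries that stand apart, the arecoline estimate was -3.92 ± 1.06 (adjusted p = 0.041), with only arecoline replicates 1 and 4 left. Arecoline against saline there also called 7 of 8 medium spiny neuron, 4 of 5 direct-pathway and 3 of 5 indirect-pathway markers. It called 2 of 3 cholinergic interneuron and 0 of 6 cortical excitatory markers. In the same fit the Adora2a estimate was -1.65 ± 0.70 with caffeine (adjusted p = 0.146) and -0.62 ± 0.74 with nicotine. With the mean level of the medium spiny neuron markers as a covariate, the caffeine estimate was 0.16 ± 0.38 and the nicotine estimate 0.68, under the same limit as for Adora1. The arecoline estimate was -1.26 by limma on log2(FPKM + 0.1).

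Adora2a followed most, but not all, striatal markers from library to library. Among all genes tested, the 3 with the highest Spearman correlation over 16 libraries were Unc13c, a synaptic vesicle priming factor, at 0.97, Serpina9 at 0.96, and Drd2, the dopamine receptor of the same neurons, at 0.95. Over the 13 libraries without the 3 highest, the values were 0.95, 0.92 and 0.92. Penk, the enkephalin precursor of indirect-pathway neurons, had 0.95, and Drd1, which marks the direct-pathway neurons instead, had 0.94. In the same marker lists Sp9 (indirect-pathway) had 0.09, Sfxn1 (direct-pathway) -0.27 and Bcl11b (medium spiny neurons) 0.31, and these were -0.47, -0.15 and -0.20 over the 13. These libraries share groups, depth and dissection, so the correlations are descriptions. The summed level of 5 indirect-pathway markers was 2344 to 3145 CPM in the 3 high libraries and 159.5 to 715.8 CPM in the other 13. None of these 5 genes passed the test with caffeine against saline, and their median log2 fold change was -1.69.

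**Figure D2:**
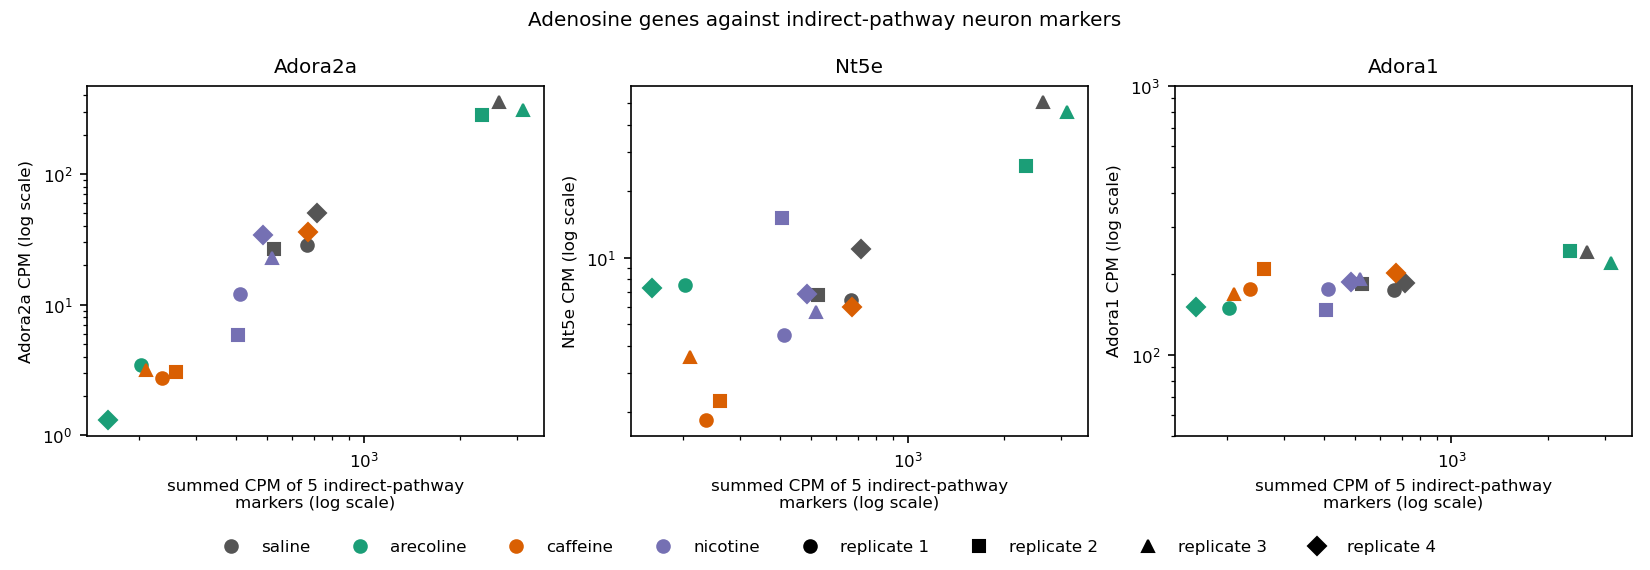
Adora2a, Nt5e and Adora1 in CPM against the summed CPM of 5 indirect-pathway neuron markers (both axes log), 1 point per library, coloured by group with the marker shape giving the replicate. Saline replicate 3 and arecoline replicates 2 and 3 lie apart on the right at 2344 to 3145 CPM of markers and hold the 3 highest values of each gene.

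Taken relative to the indirect-pathway markers (log2 CPM of Adora2a minus the mean log2 CPM of the 5 markers, with 0.5 CPM added), saline libraries had 0.44, 0.88, 1.70 and 0.92. Caffeine libraries had -1.5, -1.29, -1.37 and 0.77, arecoline libraries -0.92, 1.75, 1.69 and -2.13, and nicotine libraries -0.11, -0.84, 0.58 and 0.92. Saline replicate 3 and arecoline replicates 2 and 3, highest in the summed markers, were also highest on this scale. Arecoline replicate 4, lowest in the summed markers, was lowest, so this scale still varied with the marker level. Caffeine replicates 1 to 3 lay below all saline libraries here, and the groups overlapped through caffeine replicate 4. The caffeine mean was -1.83 from saline (two-sided exact permutation p = 0.0571, 0.257 after adjustment over 9 tests), where 4 against 4 libraries allow no p below 0.0286. The arecoline and nicotine means were -0.88 and -0.84 from saline (exact permutation p = 0.429 and 0.2).

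**Figure D3:**
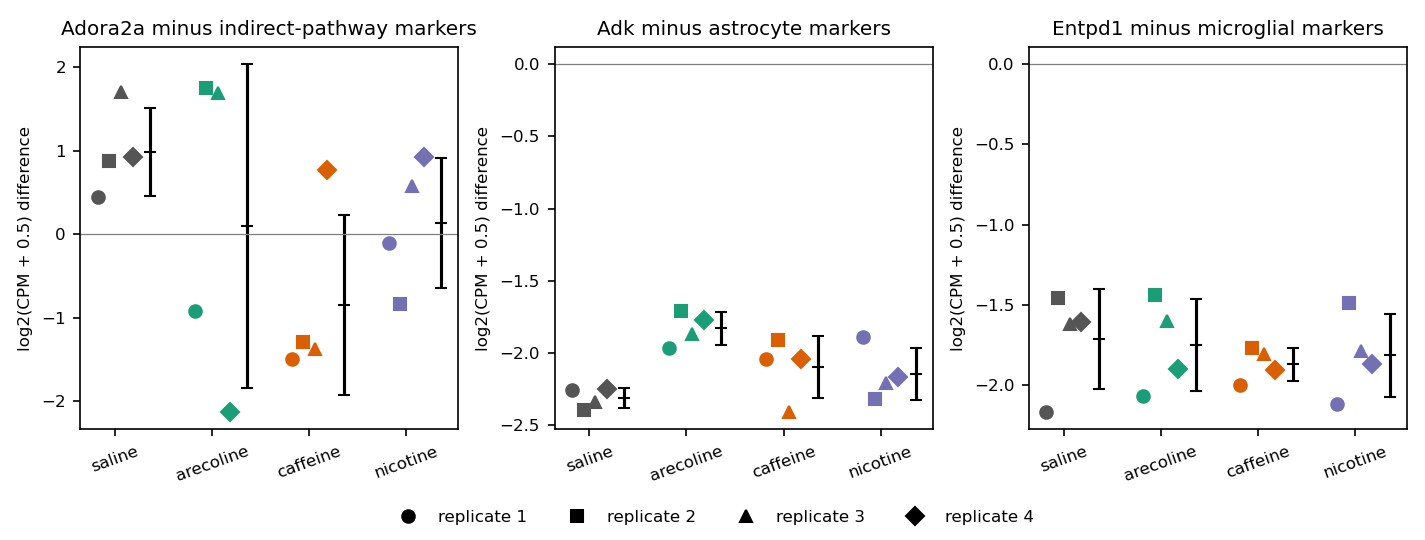
Log2 level of Adora2a, Adk and Entpd1 relative to the mean log2 level of indirect-pathway, astrocyte and microglial markers, by group, with 1 point per library and the group mean with its SD (n = 4) as a bar beside the points. Adk lies higher in all 4 arecoline libraries than in any saline library, and no test passed after adjustment.

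Adora2b, the low-affinity A2B receptor (chromosome 11, 62248984 to 62266453), and Adora3, the A3 receptor (chromosome 3, 105870858 to 105908926), were scarce. Adora2b lay between 5.90 and 14.13 CPM, with group means of 8.14 ± 2.53 CPM for caffeine, 7.63 ± 0.988 CPM for arecoline and 8.95 ± 2.60 CPM for nicotine (SD, n = 4). Its ranges overlapped between all groups, and its log2 fold changes against saline were -0.26 ± 0.26, -0.36 ± 0.26 and -0.14 ± 0.27 with caffeine, arecoline and nicotine. The intervals reached from -0.82 to 0.30, -0.92 to 0.20 and -0.70 to 0.43. The estimates were -0.35, -0.36 and -0.43 without the 4 libraries that stand apart.

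Adora3 lay between 0.68 and 2.59 CPM, which rests on 10 to 51 counts per library, and no difference between groups was detectable at this depth. Its log2 fold changes against saline were 0.34 ± 0.41, 0.33 ± 0.41 and 0.39 ± 0.41 with caffeine, arecoline and nicotine. Adora3 shares nearly all of its span with Tmigd3 on the same strand, which had at most 4 counts. The table also holds a second row named Adora3, which took 50% of the summed reads in saline replicate 1 and none in 11 libraries. With both rows summed, an alternative added after seeing the data, the 3 estimates were 0.22, 0.17 and 0.18. They were 0.18, 0.10 and 0.32 for the first row alone without the 4 libraries that stand apart.

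**Figure D4:**
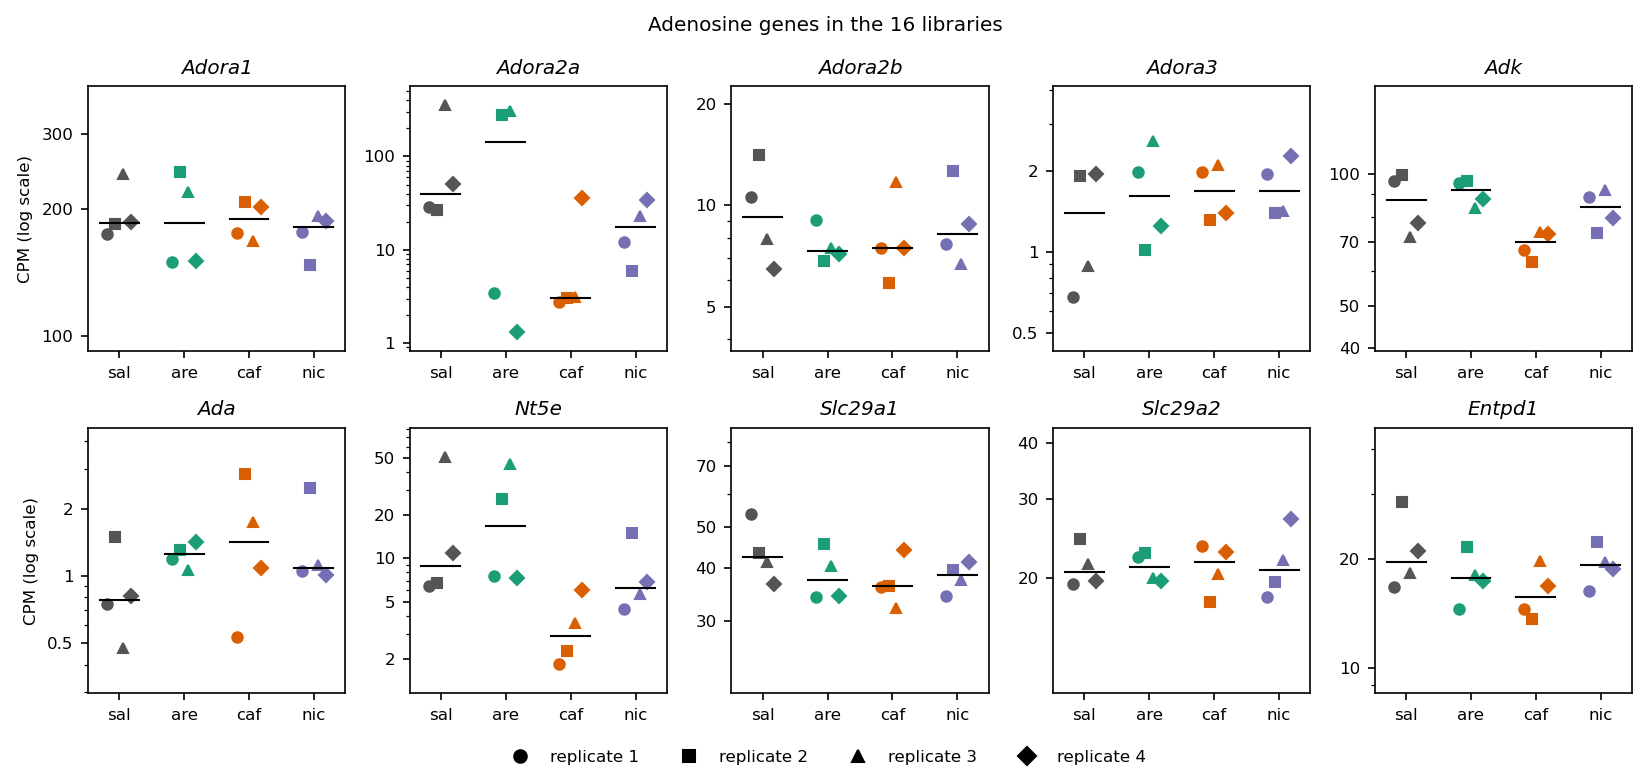
CPM of the 10 genes (log axis) in each library (marker shape gives the replicate), by group (sal saline, are arecoline, caf caffeine, nic nicotine), with the group median as a line. Adora2a and Nt5e are highest in saline replicate 3 and arecoline replicates 2 and 3. Groups overlap except for Adk and Nt5e with caffeine against arecoline, and Nt5e with caffeine against saline. Caffeine lay wholly below arecoline for 3.99% of all genes tested, and wholly below saline for 7.82%.

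Nt5e, which forms adenosine from AMP at the cell surface (chromosome 9, 88327197 to 88372092, plus strand), had its lowest levels with caffeine. It stood at 6.40, 6.74, 50.6 and 10.9 CPM in saline replicates 1 to 4, and at 7.54, 25.9, 45.4 and 7.31 CPM with arecoline. With caffeine it stood at 1.84, 2.25, 3.55 and 6.00 CPM, and with nicotine at 4.44, 15.1, 5.69 and 6.85 CPM. Each caffeine library lay below each saline and each arecoline library, while the nicotine range overlapped all groups. Of all genes tested, 7.82% had caffeine libraries wholly below the saline libraries, and Nt5e was the only member to do so. Caffeine libraries lay wholly below the arecoline libraries for 3.99% of all genes tested, and for 2 members, Nt5e and Adk. Several neuronal marker sums also separated caffeine from saline without overlap. Medium spiny neuron markers lay at 987.0 to 1899 CPM with caffeine and 2083 to 8976 CPM with saline. Direct-pathway markers lay at 147.0 to 298.6 against 338.7 to 1592 CPM, and cholinergic interneuron markers at 2.31 to 9.01 against 14.84 to 63.87 CPM. Cortical excitatory markers were the higher with caffeine, at 653.9 to 832.8 against 84.29 to 517.6 CPM. Indirect-pathway markers overlapped, at 209.8 to 671.7 CPM with caffeine and 525.7 to 2649 CPM with saline. With arecoline the medium spiny neuron (791.8 to 7642 CPM), direct-pathway (151.8 to 1669) and cholinergic interneuron sums (1.26 to 68.29) overlapped those with caffeine. Indirect-pathway sums did too (159.5 to 3145), and of these lists only the cortical excitatory sums lay apart (174.5 to 543.3).

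The means of Nt5e were 3.41 ± 1.88 CPM with caffeine and 18.7 ± 21.4 CPM with saline (SD, n = 4), a log2 fold change of -2.44 ± 0.74 with a 95% interval of -4.01 to -0.88. It missed the threshold in edgeR (unadjusted p = 0.00434, adjusted p = 0.0676) and passed it in DESeq2 (-2.46 ± 0.76, adjusted p = 0.0212). Saline replicate 3 carried much of the size: without it the estimate was -1.22 ± 0.60 (adjusted p = 0.278). Without saline replicate 1 it was -2.73 ± 0.75 (adjusted p = 0.0431), and without the 4 libraries that stand apart -1.23 ± 0.34 (adjusted p = 0.0336). With the medium spiny neuron covariate it was -0.76 ± 0.49 (adjusted p = 0.44), which cannot separate marker level from caffeine because the marker sums did not overlap.

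Nt5e levels with the other compounds overlapped saline. The log2 fold change was 0.20 ± 0.68 with arecoline and -1.24 ± 0.71 with nicotine. These were -0.11 and -0.50 without the 4 libraries that stand apart, and the nicotine estimate was 0.26 under the medium spiny neuron covariate. The correlation of Nt5e with Adora2a over 16 libraries was 0.65 by Spearman, and 0.35 over the 13 without the 3 high libraries. The genes most like Nt5e were Osbpl9 at 0.93, Ddx5 at 0.92 and Pde1c at 0.91, which were 0.88, 0.90 and 0.84 over the 13.

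Entpd1, the CD39 enzyme upstream of Nt5e, is in the brain chiefly a microglial and vascular gene (chromosome 19, 40612366 to 40741602). It stood at 16.8, 28.5, 18.3 and 21 CPM with saline, 14.6, 21.5, 18.0 and 17.4 with arecoline, 14.6, 13.7, 19.8 and 16.8 with caffeine, and 16.3, 22.3, 19.6 and 18.8 with nicotine. The highest value was saline replicate 2, and the groups overlapped. Against saline the log2 fold change was -0.38 ± 0.18 with caffeine (edgeR, unadjusted p = 0.0455, adjusted p = 0.194), -0.24 ± 0.18 with arecoline and -0.14 ± 0.18 with nicotine. Leaving out the 4 libraries that stand apart gave -0.45 ± 0.18, -0.46 ± 0.21 and -0.28 ± 0.19, none past the threshold. Relative to 8 microglial markers, whose sum ran from 573 to 911 CPM, the differences from saline were -0.16, -0.04 and -0.10 log2 units (exact permutation p = 0.4, 0.943 and 0.6). The FPKM ratio of Entpd1 to Nt5e was below 1 in 2 libraries, saline replicate 3 and arecoline replicate 3, and reached 12 in caffeine replicate 1.

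Adk, which phosphorylates adenosine back to AMP and spans 395996 bases of chromosome 14 (21052574 to 21448569), was the steadier of the genes with low values under caffeine. It stood at 96.7, 99.3, 71.7 and 77.4 CPM with saline and at 67.2, 63.0, 73.6 and 73.1 CPM with caffeine. Arecoline libraries had 95.6, 96.6, 83.5 and 87.9 CPM and nicotine libraries 88.8, 73.5, 91.9 and 79.6 CPM. Caffeine libraries were lower than all arecoline libraries, as were those of 3.99% of all genes tested, and overlapped saline through saline replicate 3.

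Adk means were 69.2 ± 5.07 CPM with caffeine and 86.3 ± 13.8 CPM with saline, a log2 fold change of -0.32 ± 0.11 (adjusted p = 0.104 and unadjusted 0.0122 in edgeR). Against arecoline it was -0.39 ± 0.11 (adjusted p = 0.148, and 0.0441 in DESeq2). Without the 4 libraries that stand apart, caffeine against saline gave -0.40 ± 0.10 (adjusted p = 0.026). With all libraries it was 0.08 ± 0.11 with arecoline and -0.05 ± 0.11 with nicotine, with intervals of -0.16 to 0.31 and -0.29 to 0.19.

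By point estimate, astrocyte markers were lower along with Adk with caffeine, and with arecoline they were lower while Adk was not. Neither Adk difference passed the threshold with all 16 libraries. The 8 markers of this list summed to 4213 to 5751 CPM with saline and 2999 to 4579 CPM with caffeine. With caffeine 3 of the 8 fell past the threshold (2.09% of all genes were called lower), and the median log2 fold change was -0.54. With arecoline 0 of the 8 passed in edgeR (0.0136% of all genes did) and 2 in DESeq2 (2.19%), with a median of -0.45. Relative to the mean of these markers, Adk was -2.26, -2.40, -2.34 and -2.25 log2 units in saline libraries and -2.04, -1.91, -2.41 and -2.04 in caffeine libraries. Arecoline libraries had -1.97, -1.71, -1.87 and -1.77, all above saline, while the astrocyte markers summed to 3554 to 4124 CPM with arecoline, below every saline library. The difference from saline was 0.21 with caffeine (exact permutation p = 0.143), 0.48 with arecoline (p = 0.0286 by the exact permutation test, the smallest possible, and 0.257 adjusted over 9 tests) and 0.17 with nicotine (exact permutation p = 0.114). Oligodendrocyte markers were also lower with caffeine, with 5 of 7 past the threshold against the same 2.09% and sums of 3321 to 5380 CPM against 7011 to 8125 CPM with saline. The part of either list in the Adk values was not tested.

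Ada, the deaminase that turns adenosine into inosine (chromosome 2, 163726584 to 163750239), was the scarcest member by median FPKM, with 7 to 42 counts per library and 0.48 to 2.87 CPM. Its highest values were caffeine replicate 2 and nicotine replicate 2, and the groups overlapped. The log2 fold changes against saline were 0.80 ± 0.50 with caffeine, 0.49 ± 0.50 with arecoline and 0.65 ± 0.51 with nicotine, each with an interval that includes 0. Leaving out the 4 libraries that stand apart gave 0.58 ± 0.53, 0.36 ± 0.62 and 0.05 ± 0.57. The FPKM ratio of Adk to Ada had a median of 73.9 and ran from 21.8 to 152 over the 16 libraries, so Adk was the more abundant transcript in all of them.

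The transporters were steady. Slc29a1, the ENT1 transporter (chromosome 17, 45585200 to 45599606, minus strand), stood at 53.9, 43.5, 41.5 and 36.7 CPM with saline, 34.2, 45.8, 40.5 and 34.4 with arecoline, 36.1, 36.4, 32.2 and 44.1 with caffeine, and 34.3, 39.6, 37.6 and 41.5 with nicotine. Saline replicate 1 was the highest, and the groups overlapped. Against saline the log2 fold changes were -0.24 ± 0.13, -0.18 ± 0.13 and -0.20 ± 0.13 with caffeine, arecoline and nicotine, with intervals that reached no lower than -0.52. They were -0.27 ± 0.14, -0.38 ± 0.17 and -0.25 ± 0.15 without the 4 libraries that stand apart, none past the threshold. Slc29a2, the ENT2 transporter (chromosome 19, 5023860 to 5031972), lay between 17.6 and 27.1 CPM in all 16 libraries. Its 3 estimates were -0.01 ± 0.14, -0.01 ± 0.14 and 0.03 ± 0.14, with intervals within -0.30 to 0.32. By FPKM, Slc29a1 exceeded Slc29a2 in all 16 libraries, with ratios of 2.01 to 3.79.

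The 3 compounds were each compared with the same saline libraries, and their estimates are therefore not independent. With caffeine, 0 of the 10 members passed an adjusted p under 0.05 in edgeR, where 4.08% of the 14674 genes tested did. At an unadjusted p under 0.05 the count was 4 of 10, Nt5e, Adk, Adora2a and Entpd1, against 24.6% of all genes. DESeq2 called 1 member, Nt5e, against 7.3% of its 20463 genes. The median log2 fold change of the members was -0.25 and that of all genes -0.02. Arecoline against saline had 0 of 10 called by edgeR against 0.0136% of all genes, 0 at an unadjusted p under 0.05 (15.7% of all genes) and 0 by DESeq2 (2.19%), with a median of 0.03. Nicotine against saline had 0 of 10 called against 0.0% of all genes, with 0 at an unadjusted p under 0.05 (12.2% of all genes), 0 by DESeq2 (0.528%) and a median of -0.14. Without the 4 libraries that stand apart, 2 members (Nt5e and Adk) were called with caffeine against 10.0% of all genes, and 1 (Adora2a) with arecoline against 6.39%. Of the 8 medium spiny neuron markers, 7 were called with caffeine and 7 with arecoline in that fit.

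**Figure D5:**
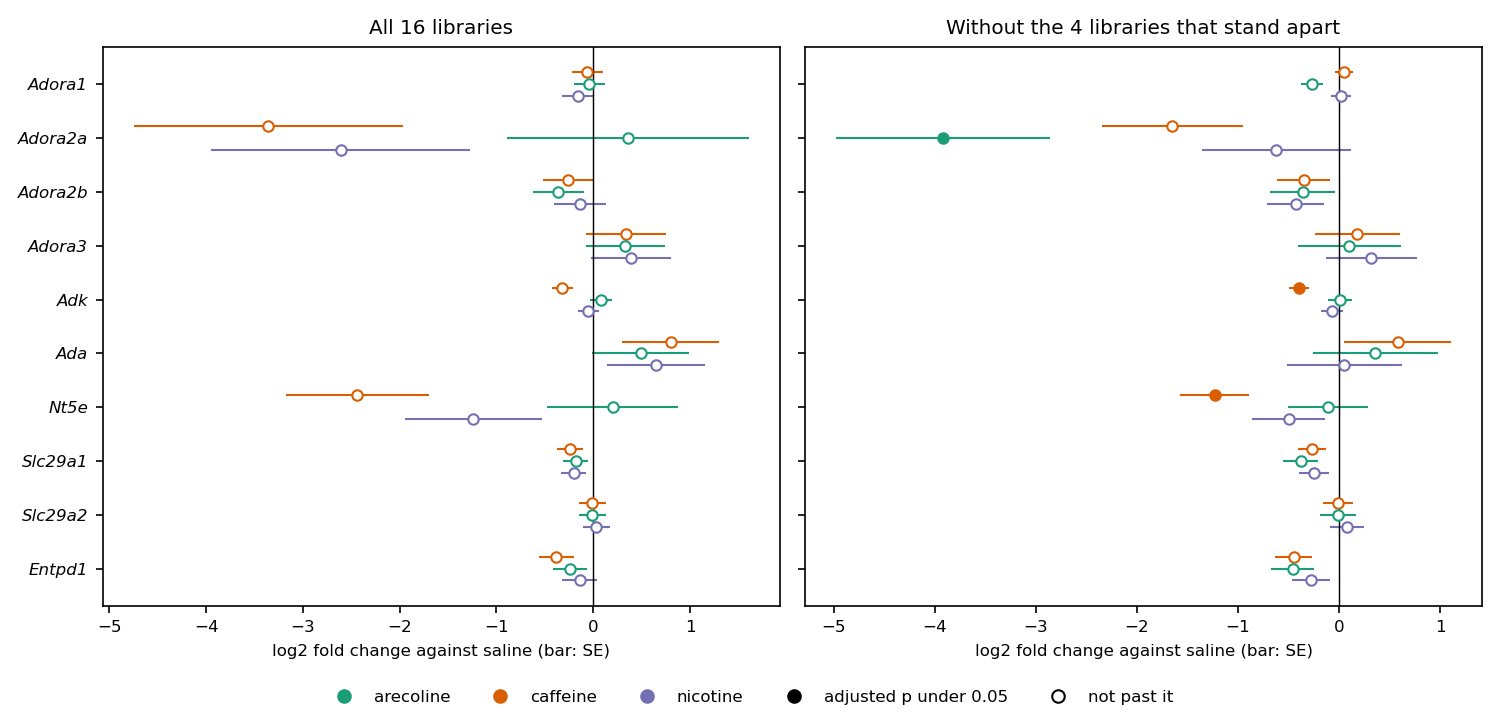
Log2 fold change against saline of the 10 genes by edgeR with its standard error, for caffeine, arecoline and nicotine, over all 16 libraries (left) and without the 4 that stand apart (right, where arecoline holds 2 libraries). Filled points pass an adjusted p under 0.05: none on the left, and Nt5e and Adk with caffeine and Adora2a with arecoline on the right.

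Between the compounds, edgeR called 0 of 10 members in all 3 comparisons. With caffeine against arecoline, 0.0% of all genes passed, and 3 members, Nt5e, Adk and Adora2a, had an unadjusted p under 0.05 (15.8% of all genes), with log2 fold changes of -2.64 ± 0.74, -0.39 ± 0.11 and -3.72 ± 1.41 (edgeR, adjusted p = 0.145, 0.148 and 0.217). DESeq2 called Nt5e and Adk there, and 1.81% of all genes. Without the 4 libraries that stand apart the Adora2a estimate turned to 2.27, and Nt5e and Adk stood at -1.12 and -0.41. With caffeine against nicotine, 0.0% of all genes passed, 1 member (Adk, -0.27 ± 0.11, adjusted p = 0.505) had an unadjusted p under 0.05 against 9.3% of all genes, and DESeq2 called 0 members against 0.0244%. With arecoline against nicotine, 0.0886% passed, 1 member (Adora2a, 2.97 ± 1.36, adjusted p = 0.261) had an unadjusted p under 0.05 against 18.2%, and DESeq2 called 0 members against 2.97%. The test for any difference among the 4 groups called 0 members against 1.14% of all genes, with 3 at an unadjusted p under 0.05 against 23.4%. DESeq2 called 1 in that test, Nt5e, against 8.03%, and edgeR without the 4 libraries called 1, Adk, against 8.02%.

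The wider pathway was read from a list of 39 further genes of nucleotide breakdown, nucleoside transport and adenosine metabolism, of which 31 were tested. With caffeine 2 rose and 1 fell in edgeR, against 2.0% and 2.09% of all genes in those directions, and the list's median was -0.12 against -0.02 for all genes. Gda, the guanine deaminase, had 126 ± 13.2 CPM with caffeine and 84.8 ± 16.9 CPM with saline, and its log2 fold change was 0.58 ± 0.16 (edgeR, adjusted p = 0.0484). Entpd6, a nucleoside diphosphatase, had 123 ± 12.3 and 97.1 ± 5.06 CPM, and its log2 fold change was 0.35 ± 0.09 (edgeR, adjusted p = 0.0494). Ahcyl1, a relative of the enzyme that splits adenosylhomocysteine, fell by 0.37 ± 0.10 on the log2 scale, from 167 ± 16.8 to 130 ± 13.9 CPM (adjusted p = 0.0423). The caffeine and saline libraries did not overlap for any of these 3 genes, as was so for 8.22% of all genes on the higher side and 7.82% on the lower. All 3 calls lay close to the threshold. Leaving out 1 of the 16 libraries in turn ended the call of Gda in 10 cases, of Entpd6 in 12 and of Ahcyl1 in 11, with estimates of 0.47 to 0.69, 0.30 to 0.41 and -0.42 to -0.30. DESeq2 called 4 pathway genes with caffeine against 7.3% of all genes, and edgeR without the 4 libraries that stand apart called 4 against 10.0%.

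No pathway gene passed in the other comparisons by edgeR. The counts below are of the 31 genes tested. In the order below, 15.7%, 12.2%, 15.8%, 9.3% and 18.2% of all genes had an unadjusted p under 0.05 in edgeR. DESeq2 called 2.19%, 0.528%, 1.81%, 0.0244% and 2.97% of all genes. With arecoline against saline, 3 had an unadjusted p under 0.05 and DESeq2 called 2, and the smallest p-values were those of Ahcyl1 (-0.37 ± 0.10), Slc29a4 (-0.99 ± 0.28) and Nt5c2 (-0.32 ± 0.14). With nicotine, 6 had such a p and DESeq2 called 0, with Entpd2 (-0.55 ± 0.14), Gda (0.39 ± 0.16) and Pnp2 (-1.79 ± 0.71) first. With caffeine against arecoline, 7 had such a p and DESeq2 called 1, with Nt5m (0.41 ± 0.11), Entpd6 (0.32 ± 0.09) and Enpp2 (-0.68 ± 0.22) first. With caffeine against nicotine, 7 had such a p and DESeq2 called 0, with Entpd2 (0.38 ± 0.14), Ahcyl1 (-0.25 ± 0.10) and Nt5c2 (-0.35 ± 0.14) first. With arecoline against nicotine, 7 had such a p and DESeq2 called 2, with Slc29a4 (-1.19 ± 0.28, adjusted p = 0.0637), Ampd2 (0.50 ± 0.14) and Panx1 (0.40 ± 0.13) first.

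Downstream of the receptors, 22 genes of G proteins, cyclic AMP signalling and the potassium channels opened by A1 receptors were all tested. With caffeine 1 rose (2.0% of all genes were called higher), Kcnj9, a subunit of these G-protein-gated potassium channels. It stood at 68.2, 78.6, 47.5 and 70.6 CPM with saline and at 123, 123, 114 and 128 CPM with caffeine. These did not overlap, as was so for 8.22% of all genes on the higher side. The log2 fold change was 0.88 ± 0.19 (edgeR, adjusted p = 0.0244), and it was 0.70 ± 0.19 with nicotine and 0.35 ± 0.19 with arecoline, neither past the threshold. The call of Kcnj9 was lost without saline replicate 2 (adjusted p = 0.0552), caffeine replicate 1 (0.0906) or caffeine replicate 2 (0.0698), at estimates of 0.88 to 0.98, and with the medium spiny neuron covariate (0.59, adjusted p = 0.0697). The list's median with caffeine was 0.05. Without the 4 libraries that stand apart, 5 of the 22 were called with caffeine against 10.0% of all genes, and 8 with arecoline against 6.39%. Only arecoline replicates 1 and 4 are left in that fit. Ppp1r1b and Gng7 of this list are also among the 8 medium spiny neuron markers, of which 7 were called there with caffeine and 7 with arecoline. The part of these markers in the counts was not tested.

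No signalling gene passed elsewhere by edgeR. The counts below are of the 22 genes tested. In the order below, 15.7%, 12.2%, 15.8%, 9.3% and 18.2% of all genes had an unadjusted p under 0.05 in edgeR. DESeq2 called 2.19%, 0.528%, 1.81%, 0.0244% and 2.97% of all genes. With arecoline against saline, 3 had an unadjusted p under 0.05 and DESeq2 called 0, with Prkar1a (0.30 ± 0.10), Creb1 (0.32 ± 0.11) and Gnai1 (-0.46 ± 0.20) first. With nicotine, 7 had such a p and DESeq2 called 1, with Kcnj9, Gnb1 (0.40 ± 0.12) and Prkar1b (0.33 ± 0.13) first. With caffeine against arecoline, 10 had such a p and DESeq2 called 0, with Prkar1b (0.40 ± 0.13), Gnai1 (0.57 ± 0.20) and Kcnj9 (0.53 ± 0.19) first. With caffeine against nicotine, 0 had such a p and DESeq2 called 0, with Gnai2 (0.25 ± 0.14), Gnai1 (-0.27 ± 0.20) and Gnao1 (0.15 ± 0.12) first. With arecoline against nicotine, 7 had such a p and DESeq2 called 1, with Gnai1 (-0.85 ± 0.20, adjusted p = 0.0667), Gnb5 (0.56 ± 0.21) and Gnas (-0.51 ± 0.22) first.

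The members differed in how they moved together across libraries. Adora2a correlated with Slc29a1 at a Spearman value of 0.70 and with Adora1 at 0.69 over 16 libraries, and at 0.67 and 0.43 over the 13 without the 3 high ones. Adora1 and Adora2b ran opposite at -0.53 and -0.56. Adora1 was most like Smpd3 (0.91), Hpca (0.90) and Rnf112 (0.90), and Adk most like Rasa2 (0.85), Nat8f1 (0.84) and Lgmn (0.82). For Adora2b the closest were Igfbp2 (0.84), Dele1 (0.81) and Slc3a2 (0.81), for Slc29a1 Klhl33 (0.86), Vav3 (0.85) and Lingo3 (0.85), and for Entpd1 Pgghg (0.82), Tram2 (0.82) and Acsf2 (0.81). Ada, Adora3 and Slc29a2 had their closest genes at lower values, with Cdkn1a (0.81), Pcid2 (0.76) and 9030624G23Rik (0.79) first.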

How the data were processed

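Per the labels' protocols, Trizol-extracted RNA was made into cDNA by oligo-dT priming and template switching, PCR-amplified, and read on a NovaSeq. Tools listed in the submitters' processing notes are RSEM, HISAT2, StringTie 1.3.1, Bowtie2 2.2.8 and fastp 0.18.0, with the mm10 build. The deposited table holds estimated counts, which the authors did not scale for depth, and FPKM values that the authors scaled to gene length and depth. Rows were named by GENCODE M21 (22283 of 22337). Molecular identifiers are not mentioned, so amplified copies count as reads.

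Estimated counts were rounded and tested with edgeR 4.0.16 (TMM, filterByExpr, quasi-likelihood, all 16 libraries, a mean per group, Benjamini-Hochberg over 14674 genes, threshold 0.05). All 10 members passed the filter. Intervals use the model's degrees of freedom. Levels relative to markers were compared by two-sided exact permutation tests. The alternatives include DESeq2 1.42.0 and limma 3.58.1. Replicates were not duplicates (lowest chi-square per degree of freedom 11.7). The members, the gene lists and the 4 libraries that stand apart were chosen with earlier results of these data known. Named genes were all members, each list's genes past the threshold or otherwise the 3 with the smallest p, and the 3 genes most correlated with each member. The steps were tested on simulated data. Promoter sequences are from RefSeq on GRCm38.p6.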

Additional observations from a re-analysis of the deposited data

Results flagged for a closer look

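In 40 groups of 4 libraries (10 genes in 4 groups), 5 held 1 library set so far from the nearest other, relative to the group's range, that it passed Dixon's 95% critical value, which chance passes in about 1 of 20 groups. Saline replicate 3 accounted for 3 of them. Adora1 stood at 242 CPM there against 175 to 186 CPM in the other saline libraries. Adora2a stood at 356 CPM there against 26.6 to 50.4 CPM, and Nt5e at 50.6 CPM against 6.40 to 10.9 CPM. Adora2a stood at 35.7 CPM in caffeine replicate 4 against 2.76 to 3.14 CPM in the other caffeine libraries. Ada stood at 2.46 CPM in nicotine replicate 2, the library highest in olfactory, fibroblast and meningeal, pericyte and smooth muscle, and endothelial markers, against 1.01 to 1.11 CPM in the other nicotine libraries.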

How the results depend on the processing

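Each of the 60 log2 fold changes was recomputed under 26 alternatives, and a change of sign was counted only where either value was at least 0.1 (85 smaller ones were not). The count of members called against a main count of 0 became 1 by DESeq2, 2 without the 4 libraries that stand apart and 0 to 1 on leaving out 1 library for caffeine against saline. It became 1 without those 4 for arecoline against saline, 2 by DESeq2 for caffeine against arecoline, and 1 by each of these fits for any difference among the 4 groups. The direction turned without those 4 libraries for arecoline against saline (Adora2a -3.92, Nt5e -0.11), nicotine against saline (Adora1 0.02), caffeine against arecoline (Adora1 0.32, Adora2a 2.27, Slc29a1 0.11, Entpd1 0.02), caffeine against nicotine (Adora2b 0.08) and arecoline against nicotine (Adora1 -0.30, Adora2a -3.31, Adora2b 0.07, Ada 0.30, Slc29a1 -0.14). With the medium spiny neuron covariate it turned for caffeine against saline (Adora1 0.26, Adora2a 0.16), nicotine against saline (Adora1 0.08, Adora2a 0.68, Nt5e 0.26), caffeine against arecoline (Adora1 0.20, Adora2a 0.02, Adora2b 0.00) and arecoline against nicotine (Adora1 -0.02, Adora2a -0.54). By limma on FPKM it turned for Adora2a with arecoline against saline (-1.26 with 0.1 added, -0.85 with 1 added). Leaving out 1 library gave ranges that crossed 0 for arecoline against nicotine (Ada -0.29 to 0.23, Adora1 0.00 to 0.22, Adora3 -0.32 to 0.15), caffeine against arecoline (Ada -0.15 to 0.59, Adora1 -0.12 to 0.12, Adora2b -0.14 to 0.22, Adora3 -0.19 to 0.27), caffeine against nicotine (Ada -0.29 to 0.53, Adora2b -0.34 to 0.08, Adora3 -0.16 to 0.10), arecoline against saline (Adora2a -0.27 to 2.08, Nt5e -0.46 to 1.42) and nicotine against saline (Adora2b -0.34 to 0.08, Entpd1 -0.23 to 0.03). For Nt5e with caffeine against saline it gave -2.86 to -1.22, with a call gained in 1 case. The causes were not tested. Calls appeared in the cases counted above. The levels relative to markers stayed past no threshold in all 180 cases, which cannot show stability because the exact permutation test could hardly pass. With 4 against 4 libraries its p cannot fall below 0.0286, and leaving out a library of either group raises that floor. Adk with arecoline stood at the floor and had an adjusted p of 0.257 by this test. The direction of the levels relative to markers held by the same tolerance of 0.1. Entpd1 with arecoline crossed 0 within that tolerance on leaving out 1 library (-0.19 to 0.07, against -0.04). For the named genes of the pathway and signalling lists, whose alternatives were chosen after seeing the data, no direction turned, 51 values lost a call and 20 gained one. No label says that replicate numbers pair the samples. Between groups, 8 of 24 same-number pairs correlated above 0.1, with a median of 0.02 against -0.002 for the other pairs, which does not settle it. With the replicate block, 0 members were called and Nt5e with caffeine against saline was -2.03 ± 0.61 (edgeR, adjusted p = 0.0583). Over all genes, caffeine against saline called 599 in edgeR, 997 with the block, 1494 by DESeq2 and 1491 without the 4 libraries. Adora3 and Ada rest on few counts, and the spread of Adora2a and Nt5e sets wide intervals.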
